A study of Mus musculus with 26 samples.

Results

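IGHV1-7, IGHV1-19 and IGHV1-42 are 3 heavy-chain variable (V) genes of the mouse IGHV1 family. They were chosen because their share of antibody clonotypes had been found higher in skin than in spleen in these same libraries. They are 3 of the 188 V genes named in the tables, and 3 of the 59 whose names begin with IGHV1-. A clonotype is here 1 combination of V gene, J gene and junction in nucleotides, the junction being the joined stretch that holds the third complementarity-determining region (CDR3). The 3 genes held 99 of 1267 skin clonotypes, 30258 of 993128 spleen clonotypes, 13112 of 293492 lymph node clonotypes and 312 of 386982 clonotypes of a positive control. Every table entry for these V gene names was taken, and no filter removed any.

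The samples were bulk heavy-chain libraries of B cells of skin, spleen and lymph node from wild-type mice, all associated with the skin commensal S. epidermidis, in a series titled for germinal centres in skin. Each tissue had 4 biological replicates of 2 technical libraries. No tissue group lacked the bacterium. Titles gave the tissue here, since the field for tissue says ear skin under all 3 titles. The positive control was 1 sample with 2 technical libraries, labelled as wild-type B cells with no treatment and not described further. The tables hold receptor sequences only, so no marker of skin, spleen or lymph node could be checked.

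A B cell makes its heavy chain by joining 1 V, 1 D and 1 J segment, so each V gene brings the same first and second hypervariable loops to many unrelated junctions. After activation, somatic hypermutation changes bases of the rearranged V segment, and class switching replaces the first constant regions, IgM and IgD, by IgG, IgA or IgE. The IGHV1 family, also called J558, is the largest V family of the mouse. A V gene can gain clonotypes in a sample because more separate B cells use it or because 1 clone carries many mutated copies of a junction.

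In the GRCm38.p6 annotation (the mm10 build) Ighv1-7 lies on chromosome 12 at chr12:114538495-114538788, Ighv1-19 at chr12:114708648-114708941 and Ighv1-42 at chr12:114937154-114937544, each annotated as a V segment. The deposited sequences begin at CDR2, which takes the first 24 bases, and run through framework 3 to the junction. The 135 bases before the junction are printed here for the 3 genes, as the most copied sequence with 0 mismatches. Differences from germline counted in bases below are differences from these stretches. Mutation percentages instead use the deposited mismatches and aligned V length of each sequence, so they need not equal those counts over 135 bases. Capitals mark the 18 positions at which the 3 genes are not all alike.
IGHV1-7: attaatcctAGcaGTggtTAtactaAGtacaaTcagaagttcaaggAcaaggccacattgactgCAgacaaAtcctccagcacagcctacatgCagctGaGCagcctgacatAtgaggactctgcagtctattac
IGHV1-19: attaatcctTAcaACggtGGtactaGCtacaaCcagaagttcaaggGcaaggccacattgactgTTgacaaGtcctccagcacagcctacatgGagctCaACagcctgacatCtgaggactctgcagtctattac
IGHV1-42: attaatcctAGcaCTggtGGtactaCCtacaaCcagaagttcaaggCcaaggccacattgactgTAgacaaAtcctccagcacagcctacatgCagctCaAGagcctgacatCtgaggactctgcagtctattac

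IGHV1-7 differed from IGHV1-19 at 17 of the 135 bases and from IGHV1-42 at 12, and IGHV1-19 differed from IGHV1-42 at 10. Each gene has another V gene that is nearer to it than the 3 are to each other. IGHV1-4 differed from IGHV1-7 at 2 bases, IGHV1-26 from IGHV1-19 at 5 and IGHV1-43 from IGHV1-42 at 6. The sequence of IGHV1-4 is shown because a clonotype with a mutation at either of its 2 capital positions can be named as either gene.
IGHV1-4: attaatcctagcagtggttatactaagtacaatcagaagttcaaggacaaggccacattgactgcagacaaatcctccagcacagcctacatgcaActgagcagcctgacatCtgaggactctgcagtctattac

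Depth limits every skin value. Skin replicates held 275 to 350 clonotypes and 4976 to 7495 copies, spleen replicates 25645 to 438995 clonotypes and lymph node replicates 27520 to 117561 clonotypes. Copies are the whole-number counts of the tables, and whether they count molecules or reads is not stated. Of the skin clonotypes with at least 10 copies, 10.8% to 20.4% were found in both technical libraries of their replicate, against over 99% in spleen replicates 2 to 4 and 86.8% to 99.7% in lymph node replicates 2 to 4. Spleen replicate 1, with 24.6%, and lymph node replicate 1, with 57.1%, stood apart from the other replicates of their tissue. Among all skin clonotypes of at least 10 copies, 49 of 84 with IgA were in both libraries, against 14 of 279 with IgM and 0 of 50 with IgD. In bulk RNA, more cells of a clone and more antibody RNA per cell cannot be told apart.

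IGHV1-42 varied least of the 3 between skin replicates by its share of clonotypes, though its share of copies ran from 0.480% to 5.86%. It made up 2.29%, 2.19%, 2.80% and 2.18% of clonotypes in skin replicates 1 to 4, against 1.01%, 0.77%, 1.15% and 1.16% in spleen and 1.09%, 1.12%, 1.12% and 1.22% for lymph node. The skin values did not overlap with those of either other tissue. Skin against spleen is the contrast of the choice. How many of all V genes lack overlap between tissues is not given here, for this gene or for the other 2. The means were 2.36% ± 0.292 in skin, against 1.02% ± 0.178 in spleen and 1.14% ± 0.0583 for lymph node (SD, n = 4 each). These percentages rest on 6 to 9 clonotypes per skin replicate. The exact Clopper-Pearson 95% intervals, which cover counting error only, ran from 0.805% at the lowest to 5.24% at the highest in skin.

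IGHV1-19 was the most used of the 3 in every tissue by its mean. It made up 4.0%, 1.88%, 4.04% and 2.55% of clonotypes in skin replicates 1 to 4, against 1.14%, 1.59%, 1.45% and 1.35% in spleen and 1.97%, 1.93%, 2.09% and 2.05% for lymph node. The lowest skin replicate, with 6 clonotypes, lay above all 4 spleen replicates but below all 4 lymph node replicates. The means were 3.11% ± 1.08 in skin, against 1.38% ± 0.189 in spleen and 2.01% ± 0.0717 for lymph node (SD, n = 4 each).

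IGHV1-7 varied most between skin replicates. It made up 2.0%, 5.62%, 1.24% and 0% of clonotypes in skin replicates 1 to 4, against 0.28%, 0.83%, 0.40% and 0.42% in spleen and 1.44%, 1.14%, 1.5% and 1.41% for lymph node. Skin replicate 4 had 0 of 275 clonotypes, which allows a share of up to 1.09%, and skin replicate 2 had 18 of 320. The means were 2.22% ± 2.42 in skin, against 0.480% ± 0.241 in spleen and 1.37% ± 0.161 for lymph node (SD, n = 4 each). Skin overlapped with both other tissues, whereas spleen lay below lymph node in all replicates.

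**Figure D1:**
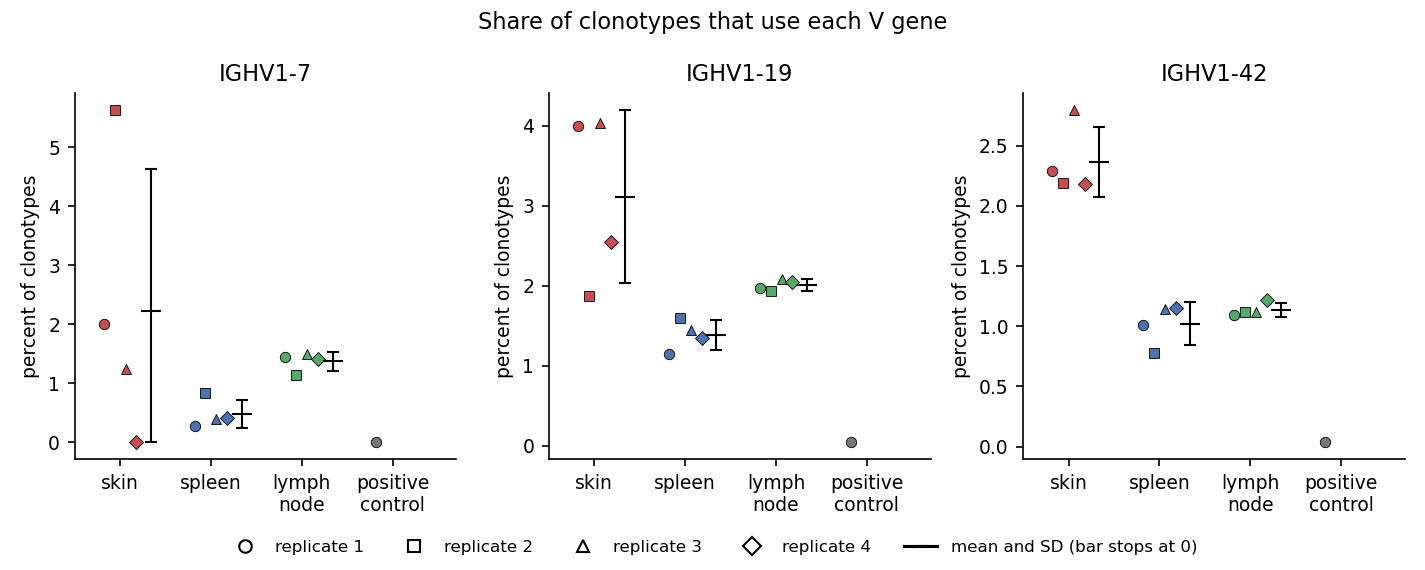
Percent of clonotypes (vertical axis) that use IGHV1-7, IGHV1-19 and IGHV1-42 in skin, spleen, lymph node and the positive control; symbols are biological replicates, and the horizontal line and bar give the mean and SD, with the bar stopped at 0. The 4 skin values of IGHV1-42 lie between 2.18% and 2.80%, while those of IGHV1-7 spread from 0% to 5.62%.

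By mean share the order was skin, lymph node, spleen, positive control for all 3 genes. For IGHV1-42 the neighbours lymph node and spleen overlapped, and for IGHV1-7 and IGHV1-19 the neighbours skin and lymph node did. Ranked among the V genes with a clonotype in each tissue, IGHV1-19 was number 8 of 84 in skin, 23 of 161 in spleen and 15 of 143 in lymph node. IGHV1-42 was number 11 in skin, against 34 in spleen and 30 for lymph node, and IGHV1-7 was number 13, 53 and 25.

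The genes were selected on skin against spleen in a fit of this kind, so its fold changes describe the choice and carry no test here. In edgeR's quasi-likelihood fit of clonotypes per V gene, the log2 fold change of skin over spleen was 2.17 (SE 0.602) for IGHV1-7, 1.07 (SE 0.258) for IGHV1-19 and 1.10 (SE 0.309) for IGHV1-42. Without skin replicate 2 that of IGHV1-7 was 0.87. That comparison called 7 of 91 V genes, or 7.69%, in either direction. Within the IGHV1 family, 3 of 46 tested genes were called higher in skin and 3 lower, and the 3 higher ones are the genes described here, as the choice required. Their calls were not stable: with the replicate number as a block, 0 V genes were called higher in skin, while the log2 fold changes were 2.10 for IGHV1-7, 1.06 for IGHV1-19 and 1.12 for IGHV1-42. There were also 0 called higher with lineages, with only the 2 tissues fitted, and without skin replicate 1, without any 1 of spleen replicates 1, 3 and 4, or without lymph node replicate 1 or 2. The family's median log2 fold change was -0.20, beside -0.28 over all 91 genes. Just inside the limit of an adjusted p of 0.05 was IGHV5-6, with 1.66 (SE 0.479), and just outside among genes higher in skin was IGHV3-8, with 1.90 (SE 0.617).

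Skin and spleen libraries also enter the comparisons with lymph node, so these are given side by side as values. Skin over lymph node was 0.65 (SE 0.572) for IGHV1-7, 0.54 (SE 0.254) for IGHV1-19 and 0.96 (SE 0.308) for IGHV1-42. Spleen over lymph node was -1.52 (SE 0.422), -0.53 (SE 0.194) and -0.14 (SE 0.220) for the same genes. Of the 91 V genes, 0% were called in skin over lymph node and 22% in spleen over lymph node by edgeR; at an unadjusted p under 0.05 there were 17 and 28.

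The positive control used the 3 genes far less than any tissue that had them. IGHV1-7 had 6 clonotypes in the control, a share of 0.00155%, IGHV1-19 had 166, a share of 0.0429%, and IGHV1-42 had 140, a share of 0.0362%. Those control clonotypes carried 8.08%, 4.22% and 5.63% V mismatches, against 1.33% over the other V genes of the control. Clonotypes without a mismatch made up 0% for IGHV1-7 and IGHV1-19 and 0.714% for IGHV1-42. For 45 of the 166 IGHV1-19 clonotypes of the control, or 27.1%, the same junction and J gene had more copies under another V gene. This held for 9 of 140 IGHV1-42 clonotypes, or 6.43%, and 3 of 6 of IGHV1-7, beside 8.79% over all V genes of the control.

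The V genes next to the 3 on the chromosome had shares of their own. Ighv10-3, next to Ighv1-7, averaged 0.545% in skin, against 0.551% in spleen and 1.25% for lymph node, and Ighv15-2 on the other side averaged 0.220%, 0.124% and 0.197%. Ighv1-20, beside Ighv1-19, averaged 0.234%, 0.191% and 0.226% in the same order, and IGHV1-19-1 was absent from skin and lymph node. Ighv1-39, beside Ighv1-42, averaged 0.473% in skin, against 0.519% in spleen and 1.48% for lymph node. IGHV1-43, the other neighbour, had no skin clonotype and 0.00743% in spleen and 0.00673% for lymph node. The near-identical IGHV1-4 averaged 0.949% ± 1.10 in skin, against 0.383% ± 0.184 in spleen and 0.861% ± 0.139 for lymph node (SD, n = 4 each), and with IGHV1-7 added the pair averaged 3.17%, 0.863% and 2.23%.

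Likeness of pattern was measured as the root mean square difference of log2(percent + 0.05), each gene centred on its mean over the 12 tissue replicates, among 90 other V genes. IGHV1-42 was the gene nearest to IGHV1-19, and IGHV1-19 the nearest to IGHV1-42, at 0.35. IGHV1-59, at 0.37 from IGHV1-19 and 0.47 from IGHV1-42, averaged 1.69% in skin, against 0.774% in spleen and 0.952% for lymph node. IGHV1-62-2 at 0.46 from IGHV1-19 and IGHV5-16 at 0.46 from IGHV1-42 completed their lists. The genes nearest to IGHV1-7 were farther off, IGHV1-12, IGHV11-2 and IGHV6-6 at 1.09, 1.10 and 1.19.

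Among IgM clonotypes, the class of cells that have not switched, IGHV1-19 was higher in skin without overlap with spleen. It made up 2.13%, 2.91%, 1.58% and 3.55% of IgM clonotypes in skin replicates 1 to 4, against 0.962% to 1.44% in spleen and 1.84% to 2.02% for lymph node. IGHV1-42 made up 2.55%, 4.07%, 1.05% and 0.709% of skin IgM clonotypes, against 0.757% to 1.15% in spleen and 1.07% to 1.19% for lymph node, so that skin replicates 3 and 4 fell within or below the spleen range. IGHV1-7 made up 2.55%, 2.91%, 1.05% and 0%, against 0.177% to 0.866% in spleen and 1.17% to 1.48% for lymph node. Each skin value rests on at most 7 IgM clonotypes of the gene.

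Among IgA clonotypes, the class secreted at body surfaces, the shares of the 3 genes were uneven over the skin replicates. IGHV1-7 made up 13.7% of IgA clonotypes in skin replicate 2 and 2.44% in replicate 3, and 0% in replicates 1 and 4. IGHV1-19 had IgA clonotypes in skin replicate 3 alone, where it made up 8.54%. IGHV1-42 made up 2.04%, 0%, 7.32% and 5.62% in skin replicates 1 to 4. In spleen the 3 genes stayed between 0.332% and 0.713%, 1.0% and 2.30%, and 0.240% and 1.31% of IgA clonotypes for IGHV1-7, IGHV1-19 and IGHV1-42. IGHV1-19 also supplied 15 of the 17 IgD clonotypes of the 3 genes in skin and made up 14.3%, 2.17%, 6.12% and 4.44% of skin IgD clonotypes, against 1.04% to 1.67% in spleen and 2.07% to 2.32% for lymph node. The 9 IgD clonotypes of skin replicate 1 include 1 of 57 copies and 5 of 1 copy each whose junctions differ from it at 1 base. All of these were in technical library 1 only.

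**Figure D2:**
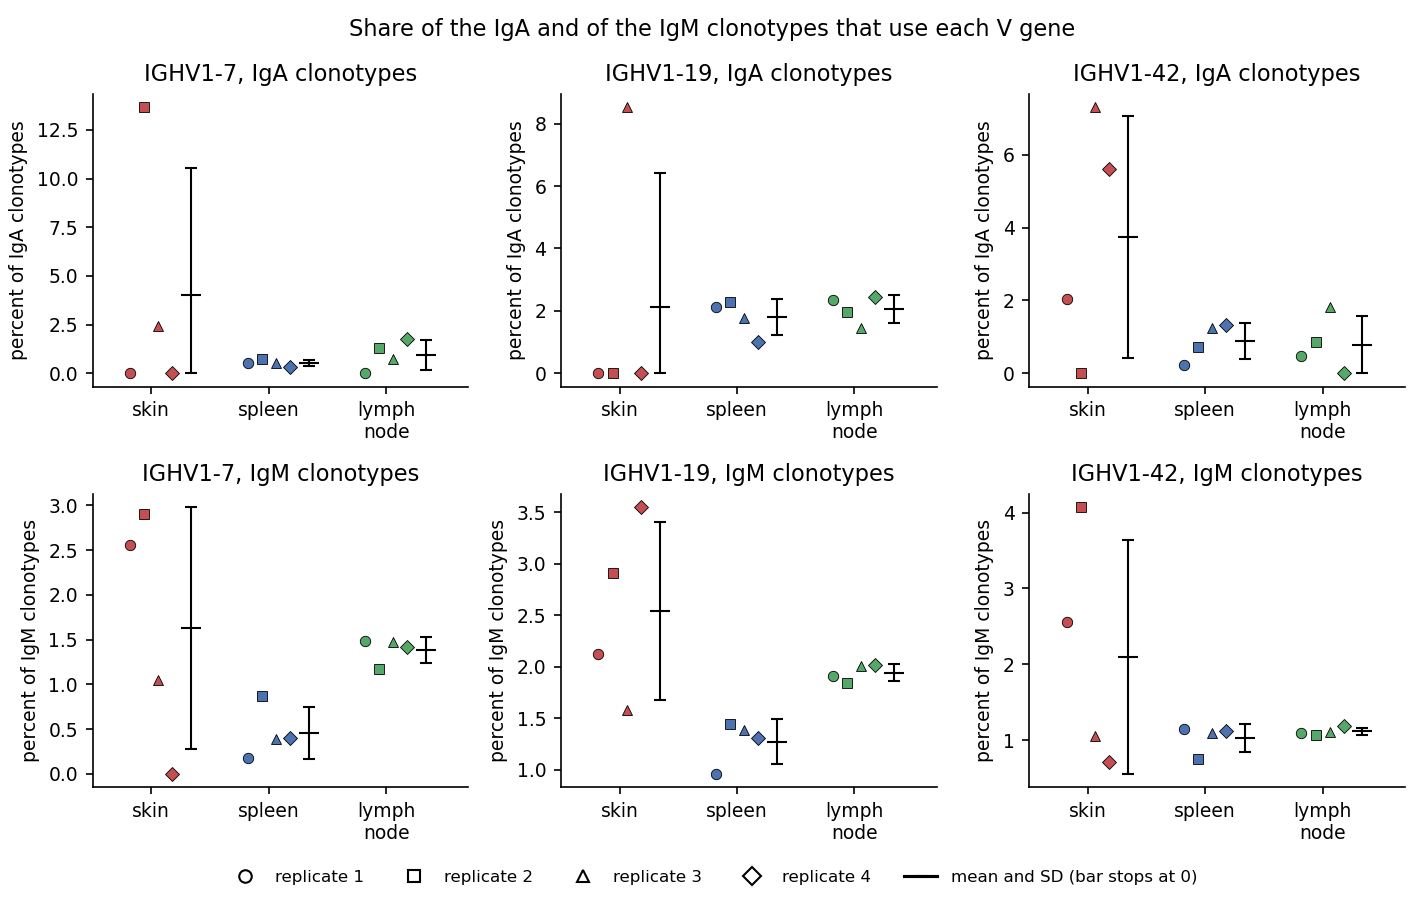
Percent of IgA clonotypes (upper row) and of IgM clonotypes (lower row) that use each V gene, by tissue; symbols are biological replicates, and lines and bars give the mean and SD, stopped at 0. High IgA values come from skin replicate 2 for IGHV1-7, replicate 3 for IGHV1-19 and replicates 3 and 4 for IGHV1-42.

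Within each gene, the IgA share of its clonotypes was tested between tissues, a measure that did not enter the choice. In skin it was 0%, 72.2% and 50% for IGHV1-7 in replicates 1 to 3, 0%, 0%, 53.8% and 0% for IGHV1-19, and 12.5%, 0%, 66.7% and 83.3% for IGHV1-42. In spleen it ranged from 4.48% to 23.9%, 4.18% to 24.2% and 3.09% to 6.80%, and in lymph node it stayed at or under 0.921% for all 3 genes. By exact permutation tests on differences in means, two-sided, 0 of 9 passed after Benjamini-Hochberg adjustment over the 9, and 3 had an unadjusted p under 0.05. These 3 were spleen against lymph node, where spleen was higher without overlap for every gene (permutation p = 0.0286, adjusted p = 0.0857). A p of 0.0286 is the smallest that 4 against 4 or 3 against 4 replicates allow, so at least 6 of 9 tests would have had to reach it to pass. All other V genes combined had 15.0% to 32.1% IgA in skin, against 5.11% to 12.9% in spleen and 0.391% to 0.788% for lymph node, so that the order of spleen and lymph node was the same in them.

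The skin clonotype with most copies of each gene held a large part of that gene's copies in its replicate. It held 97.2% in replicate 2 for IGHV1-7, 83.3% in replicate 3 for IGHV1-19 and 98.2% in replicate 4 for IGHV1-42. All 3 were IgA and were found in both technical libraries. Their sequences follow, the V stretch with capitals where its most copied form differs from the germline stretch above, then the junction in lower case.
IGHV1-7 of skin replicate 2: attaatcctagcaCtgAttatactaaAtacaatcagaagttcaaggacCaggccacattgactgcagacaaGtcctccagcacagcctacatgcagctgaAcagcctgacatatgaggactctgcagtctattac
Junction joined to IGHJ3: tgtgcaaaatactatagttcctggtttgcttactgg
IGHV1-19 of skin replicate 3: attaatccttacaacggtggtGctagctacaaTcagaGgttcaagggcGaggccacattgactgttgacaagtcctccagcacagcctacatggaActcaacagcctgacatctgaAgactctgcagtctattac
Junction joined to IGHJ2: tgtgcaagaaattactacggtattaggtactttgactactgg
IGHV1-42 of skin replicate 4: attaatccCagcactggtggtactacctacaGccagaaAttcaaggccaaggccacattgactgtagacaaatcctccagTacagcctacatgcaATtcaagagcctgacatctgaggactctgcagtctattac
Junction joined to IGHJ3: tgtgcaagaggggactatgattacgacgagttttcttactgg

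The IGHV1-7 clonotype of skin replicate 2 had 1783 copies, 989 of them in technical library 1. Its main form, with 1750 copies, differed from the germline stretch at 6 bases, of which 2 lie in CDR2, and from IGHV1-4 at 8. The IGHV1-19 clonotype of replicate 3 had 280 copies and 6 differences in its main form, and the IGHV1-42 clonotype of replicate 4 had 324 copies and 6 differences. IGHV1-42 in skin replicate 3 was led by a further IgA clonotype, joined to IGHJ1, with 82 copies and 7 differences. IGHV1-7 in skin replicate 3 was led by an IgA clonotype of 47 copies, joined to IGHJ3, with 1 difference.

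The remaining skin replicates were led by IgM or IgD clonotypes. They were an IgM clonotype of 71 copies for IGHV1-7 in replicate 1, IgD clonotypes of 57, 34 and 76 copies for IGHV1-19 in replicates 1, 2 and 4, and IgM clonotypes of 30 and 13 copies for IGHV1-42 in replicates 1 and 2. The main V form of each had 0 differences from the germline stretch, and each was found in 1 of the 2 technical libraries only. Of all clonotypes of the 3 genes with at least 10 copies in skin, 5 of 6 with IgA, 1 of 19 with IgM and 0 of 4 with IgD were in both libraries. The part of amplification in the copies of the others was not tested.

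In the other groups the largest clonotypes were often not IgA. For IGHV1-7 they were the IgA clonotype of spleen replicate 2 with 2405 copies, an IgA clonotype of lymph node replicate 4 with 582 and single copies in the control. For IGHV1-19 they were an IgM clonotype of spleen replicate 2 with 1089 copies, an IgG2 clonotype of lymph node replicate 2 with 1202 and an IgG2 clonotype of the control with 6. For IGHV1-42 they were the IgA clonotype of spleen replicate 4 with 1842 copies, an IgG2 clonotype of lymph node replicate 2 with 751 and an IgG2 clonotype of the control with 17.

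Junction variants were counted as clonotypes of the same V gene, J gene and junction length within 2 bases of the largest clonotype's junction. The IGHV1-7 clonotype of skin replicate 2 had 12 of them, 9 at 1 base, so that the clonotype and its variants were 72.2% of the 18 clonotypes of the gene in that replicate. All 12 were IgA, had 1 to 4 copies and occurred in 1 technical library each. The 4 most copied are printed with the changed base in capitals, since they show how near the variants are to the junction above.
Variant of 4 copies: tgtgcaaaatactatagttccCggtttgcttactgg
Variant of 3 copies: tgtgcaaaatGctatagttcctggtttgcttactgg
Variant of 2 copies: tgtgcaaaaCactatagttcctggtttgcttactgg
Another variant of 2 copies: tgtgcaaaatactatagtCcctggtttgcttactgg

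Of these 12 variants, 6 were also found in spleen or lymph node replicate 2. Only the junction was the same: none of the 6 shared a V sequence with the other tissue. Their main V forms in skin and the other tissue differed at 2 to 7 bases. When clonotypes of a replicate were joined into lineages (same V gene, J gene and junction length, single linkage at 85% identity), IGHV1-7 fell to 1.74% of lineages in skin replicate 2, against 5.62% of clonotypes. Its lineage shares were 1.95%, 1.74%, 1.01% and 0% in skin, against 0.21%, 1.21%, 0.66% and 0.75% in spleen and 1.34% to 1.63% for lymph node. The mean for skin was then below that for lymph node.

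Counted as lineages, the other 2 genes had a higher share in skin than in spleen in every replicate. IGHV1-19 made up 3.41%, 3.49%, 5.05% and 3.21% of lineages in skin, against 1.17% to 1.75% in spleen and 2.02% to 2.16% for lymph node, with no overlap between skin and either tissue. IGHV1-42 made up 3.41%, 2.33%, 2.02% and 1.92%, against 1.13% to 1.49% in spleen and 1.33% to 1.51% for lymph node, also with no overlap. Skin against spleen is the contrast on which the genes were chosen, so this recount is not separate support. In edgeR fits of lineages, 0 of 92 V genes were called in skin over spleen and 0 in skin over lymph node. The share of all V genes without overlap is not given here. IGHV1-19's largest skin clonotypes had 5, 0, 2 and 0 variants in replicates 1 to 4, and those of IGHV1-42 had 0, 1, 1 and 3. No variant around a largest skin clonotype was present in both technical libraries.

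In spleen the counts of variants were larger, at greater depth. The largest clonotype of IGHV1-42 in spleen replicate 4 had 64 variants, 17 of them in both technical libraries, and that of IGHV1-7 in spleen replicate 2 had 35, 4 of them in both. Over the 4 replicates the range in spleen was 4 to 35 with IGHV1-7, 4 to 9 with IGHV1-19 and 3 to 64 with IGHV1-42. In lymph node it was 0 to 4, 1 to 15 and 0 to 6 for the same genes. Because a deeper library can hold more rare variants, these counts were not compared between tissues.

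Some junctions of skin clonotypes, most of them IgA, recurred in the spleen of the same replicate number. Of the 99 skin clonotypes of the 3 genes, 16 were found in another tissue as the identical clonotype. By class, 13 of 34 with IgA, 2 of 47 with IgM and 1 of 17 with IgD were found. Of those with at least 10 copies, 5 of 6 with IgA, 2 of 19 with IgM and 1 of 4 with IgD were found. The same shares over all skin clonotypes are not given here. Of 19 such matches, 18 were with spleen or lymph node of the same number. The exception was 1 copy in lymph node replicate 4 of the junction that had 1783 copies in skin replicate 2. Neither the 16 clonotypes nor the 19 matches stand for separate clones. The 13 with IgA include that 1783-copy IGHV1-7 clonotype and 6 of its variants. They also include 1 variant of the 324-copy IGHV1-42 clonotype. Another was a 1-copy IGHV1-19 clonotype of replicate 3, whose V stretches in skin and spleen differed at 15 bases. None of the 99 was shared between skin replicates. The labels do not say whether a number marks 1 mouse.

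**Figure D3:**
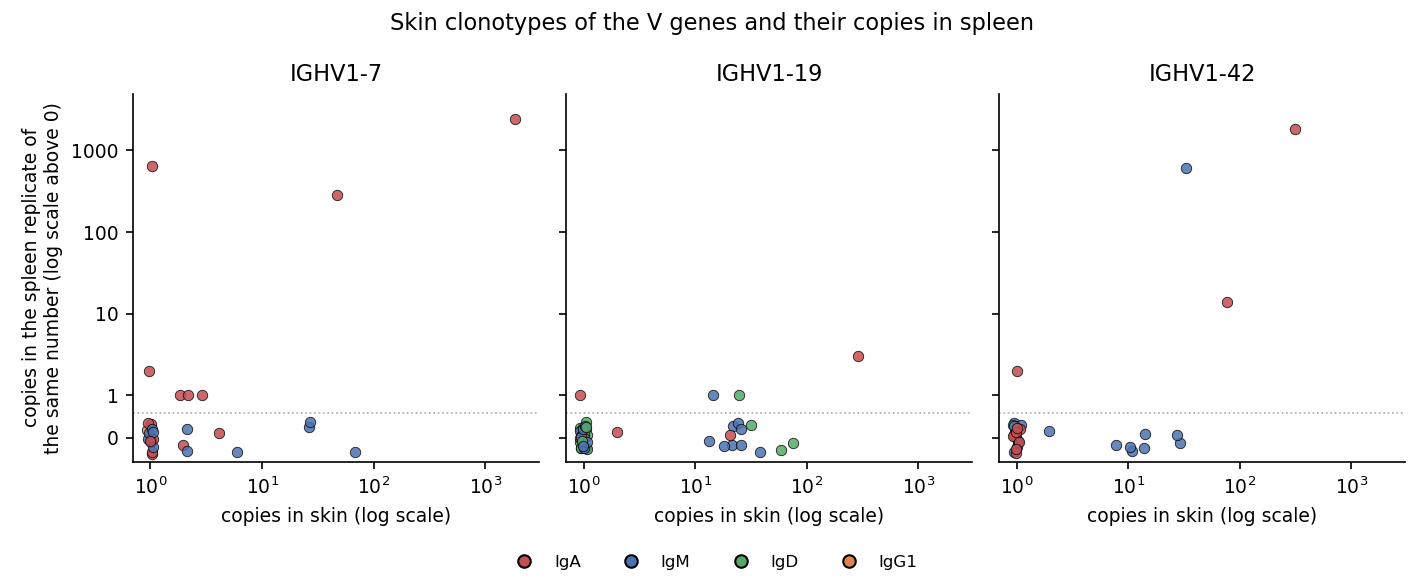
Each point is 1 skin clonotype of the V gene named above the panel, placed by its copies in skin (horizontal axis, log scale) and in the spleen replicate of the same number (vertical axis, log scale above the dotted line; points below the line have 0 copies and are spread for display). Colours give the isotype; the IgA clonotypes of 1783 copies for IGHV1-7 and 324 copies for IGHV1-42 had 2405 and 1842 copies in spleen, and most IgM and IgD clonotypes had 0.

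The IGHV1-7 clone of replicate 2 had 1783 copies in skin, against 2405 in spleen and 89 for lymph node. All 3 tissues had the same most copied V form, the 6-difference sequence printed above, with 1750, 1359 and 76 copies. The spleen forms reached down to 0 differences from germline and those of lymph node to 2, whereas the 16 forms in skin had 5 to 8. One of its 1-base junction variants, with 1 copy in skin, had 651 copies in spleen replicate 2. That skin copy had 6 differences, against 1 difference in the main spleen form of the same junction.

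The IGHV1-42 clone of replicate 4 had 324 copies in skin and 1842 in spleen, and its main V form was not the same in the 2 tissues. The skin form, printed above, had 6 differences from germline and 322 copies. The main spleen form had 1 difference and 914 copies, and the forms differed from each other at 5 bases. The skin form was present in spleen with 1.25% of that clonotype's spleen copies. Mean V mismatch of the clonotype was 4.17% in skin and 1.13% in spleen. The spleen form is printed for comparison, again with capitals at differences from germline.
IGHV1-42 of spleen replicate 4: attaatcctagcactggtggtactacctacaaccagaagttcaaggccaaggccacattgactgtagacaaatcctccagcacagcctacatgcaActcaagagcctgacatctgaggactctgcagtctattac

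The IGHV1-7 clone of replicate 3 showed the opposite order. It had 47 copies in skin with 11 V forms of 0 to 2 differences, 286 copies in spleen with 61 forms of 0 to 11 differences, and 9 copies in lymph node in 1 form of 4 differences. The main skin form had 1 difference and 37 copies, and the main spleen form had 4 differences and 77 copies. Both share the capital T near the end of CDR2 in the lines here.
IGHV1-7 of skin replicate 3: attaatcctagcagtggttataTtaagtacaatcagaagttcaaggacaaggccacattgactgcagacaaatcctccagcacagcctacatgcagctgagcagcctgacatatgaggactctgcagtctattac
IGHV1-7 of spleen replicate 3: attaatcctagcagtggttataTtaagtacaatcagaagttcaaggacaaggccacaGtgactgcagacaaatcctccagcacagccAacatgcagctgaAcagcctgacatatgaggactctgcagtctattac
Junction of both: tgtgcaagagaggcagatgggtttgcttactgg

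In replicate 3, clonotypes of IGHV1-42 and IGHV1-19 crossed. IGHV1-42 had a clonotype of 33 copies in skin, mostly IgM, and 604 copies in spleen, mostly IgA, with the same 5-difference main V form in both. The same junction also occurred in skin replicate 3 with 1 copy under IGHV1-19. That copy carried the V stretch of the 280-copy IGHV1-19 clonotype with 1 further difference. Its V and junction are printed because the capital positions repeat those of the larger clonotype.
IGHV1-19 copy of skin replicate 3: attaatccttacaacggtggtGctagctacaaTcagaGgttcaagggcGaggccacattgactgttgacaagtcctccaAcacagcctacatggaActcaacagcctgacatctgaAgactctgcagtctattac
Its junction: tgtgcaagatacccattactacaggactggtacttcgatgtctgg

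Counted over whole repertoires, a junction and J gene with more copies under another V gene of the same replicate accounted for 2 of 29 skin clonotypes of IGHV1-7, 9 of 40 of IGHV1-19 and 6 of 30 of IGHV1-42. The corresponding share over all V genes was 6.57% to 10.9% in skin, 4.87% to 12.6% in spleen and 3.45% to 7.54% for lymph node. Without these clonotypes IGHV1-19 averaged 2.63% ± 1.08 in skin and 1.35% ± 0.164 in spleen (SD, n = 4 each) and the tissues overlapped, while IGHV1-42 averaged 2.06% ± 0.407 and 1.02% ± 0.186 without overlap. How these clonotypes arose was not tested.

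V mutation of the 3 genes was high in some skin replicates and near the other tissues in the rest. IGHV1-7 clonotypes carried 0.401%, 4.38% and 0.724% mismatched V bases in skin replicates 1 to 3, against 1.49%, 0.345%, 0.429% and 0.321% in spleen and 0.179% to 0.227% for lymph node. IGHV1-19 carried 0.240%, 1.30%, 4.18% and 0.398% in skin, against 1.96%, 1.49%, 0.949% and 0.633% in spleen and 0.617% to 0.951% for lymph node. IGHV1-42 carried 1.05%, 0.632%, 4.12% and 5.21% in skin, against 0.572%, 0.819%, 0.697% and 0.618% in spleen and 0.418% to 0.659% for lymph node. Each skin replicate above 4% was led by one of the IgA clones above.

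None of the 9 exact permutation tests of V mutation passed after adjustment, and 2 had an unadjusted p under 0.05, both for IGHV1-7. Its mean was 1.84% ± 2.21 in skin (SD, n = 3) against 0.208% ± 0.0215 in lymph node (SD, n = 4), without overlap (permutation p = 0.0286, adjusted p = 0.129). Spleen, at 0.646% ± 0.564, also lay above lymph node without overlap (SD, n = 4 each; permutation p = 0.0286, adjusted p = 0.129). IGHV1-42 averaged 2.75% ± 2.26 in skin and 0.676% ± 0.108 in spleen (SD, n = 4 each), a difference of 2.07 percentage points (permutation p = 0.0857, adjusted p = 0.154). The skin mean of the other V genes ranged from 0.996% to 1.94%, against 0.678% to 1.13% in spleen and 0.469% to 0.596% for lymph node. So in the other V genes too, skin and spleen lay above lymph node without overlap. Taken as the difference from the other V genes, IGHV1-7 gave a permutation p of 0.686 (adjusted p = 0.836) for skin against lymph node. Spleen against lymph node gave the same p values.

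Mean mutation was higher in IgA than in IgM clonotypes in skin and in spleen. Over the 3 genes together, skin IgA clonotypes carried 3.97% ± 1.82 mismatches and skin IgM clonotypes 1.48% ± 0.957 (SD over 4 replicates each, 34 and 47 clonotypes). In spleen the same classes carried 3.45% ± 0.505 and 0.592% ± 0.131 (SD, n = 4). The other V genes carried 3.45% ± 0.836 in skin IgA and 0.799% ± 0.0579 in skin IgM. Of the skin clonotypes of the 3 genes, 1 of 34 with IgA and 19 of 47 with IgM had no mismatch.

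IgM clonotypes of IGHV1-42 were more mutated in skin than in either other tissue in every replicate, though not past adjustment. They carried 0.934%, 0.632%, 4.28% and 5.56% in skin replicates 1 to 4, from 6, 7, 2 and 1 clonotypes, against 0.428% to 0.612% in spleen and 0.415% to 0.574% for lymph node. The means were 2.85% ± 2.45, 0.496% ± 0.0826 and 0.475% ± 0.0683 (SD, n = 4 each; permutation p = 0.0286 and adjusted p = 0.0643 for skin against each). IgM clonotypes of IGHV1-7 carried 0.467%, 1.88% and 0.347% in skin replicates 1 to 3, against 0.217% to 0.288% in spleen, with the same p values. IgM clonotypes of the other V genes also lay higher in skin, at 0.719% to 0.852%, against 0.499% to 0.664% in spleen and 0.436% to 0.542% for lymph node, without overlap. For IGHV1-19 the IgM values overlapped instead, at 0.192%, 1.56%, 3.50% and 0.417% in skin replicates 1 to 4, against 0.499% to 1.11% in spleen. Its permutation p was 0.6 against spleen and 0.429 against lymph node (adjusted p = 0.6 and 0.551).

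Mismatches that changed an amino acid were counted over distinct sequences. In the skin sets with the highest mutation, 71.0% were replacements for IGHV1-7 in replicate 2, 64.7% for IGHV1-19 in replicate 3, 73.3% for IGHV1-42 in replicate 3 and 46.3% for IGHV1-42 in replicate 4. In spleen the share was 70.5% to 82.3% with IGHV1-7, 67.3% to 76.4% with IGHV1-19 and 64.3% to 70.3% with IGHV1-42. CDR2, with 17.8% of the 135 bases, held 32.3%, 15.3%, 30.1% and 16.9% of the mismatches in those 4 skin sets. Sequences of 1 clone share their mismatches, so these shares describe few independent changes.

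**Figure D4:**
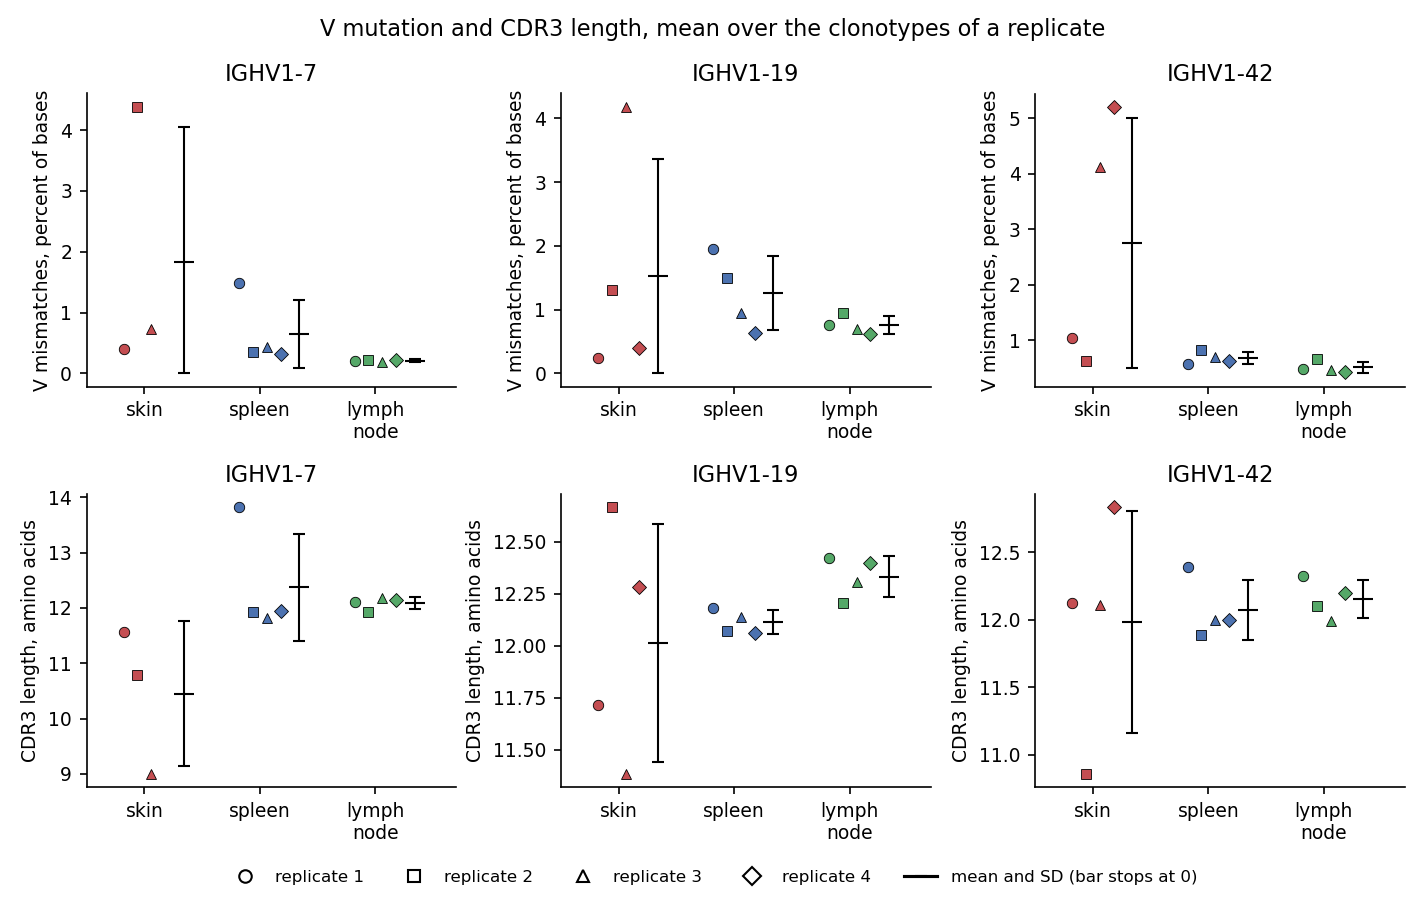
Mean V mismatch in percent of aligned bases (upper row) and mean CDR3 length in amino acids (lower row) over the clonotypes of each V gene in a replicate, by tissue; symbols are biological replicates, and lines and bars give the mean and SD, stopped at 0. High mutation in skin falls in replicate 2 for IGHV1-7, replicate 3 for IGHV1-19 and replicates 3 and 4 for IGHV1-42. The skin CDR3 of IGHV1-7 averages 11.6, 10.8 and 9.0 amino acids in replicates 1 to 3, against 11.8 to 13.8 in spleen.

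CDR3 length of IGHV1-7 was lowest in skin by its mean. It averaged 11.6, 10.8 and 9.0 amino acids in skin replicates 1 to 3, against 11.8 to 13.8 in spleen and 11.9 to 12.2 for lymph node. The means were 10.4 ± 1.32 in skin (SD, n = 3), against 12.4 ± 0.964 in spleen and 12.1 ± 0.117 for lymph node (SD, n = 4 each), without overlap in either case. The skin values rest on few clones, since 13 of 18 clonotypes in replicate 2 were 1 clonotype and its variants, all of 10 amino acids, and all 4 in replicate 3 had 9. Neither difference passed adjustment over the 9 tests (permutation p = 0.0286, adjusted p = 0.0857 for both). IGHV1-19 averaged 12.0 ± 0.573 in skin and 12.1 ± 0.0567 in spleen, and IGHV1-42 averaged 12.0 ± 0.822 in skin and 12.1 ± 0.222 in spleen (SD, n = 4 each; permutation p = 0.771 and 0.857).

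The 3 V genes were joined to different J genes in single skin replicates. IGHV1-7 was joined to IGHJ3 in 17 of 29 skin clonotypes, to IGHJ4 in 7, to IGHJ2 in 5 and to IGHJ1 in 0. The 29 clonotypes made up 9 lineages, and 0 of 9 lineages allows an IGHJ1 share of up to 33.3%, above the spleen mean given in the next paragraph. IGHJ3 made up 0%, 72.2% and 100% of its clonotypes in skin replicates 1 to 3, against 9.45% to 11.9% in spleen. IGHV1-42 was joined to IGHJ1 in 88.9% of its clonotypes in skin replicate 3 and to IGHJ3 in 66.7% in replicate 4. IGHV1-19 was spread over IGHJ4 with 16 of 40 clonotypes, IGHJ2 with 10, IGHJ1 with 8 and IGHJ3 with 6.

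None of the 12 J tests of any gene passed adjustment, while 8 of the 36 had an unadjusted permutation p under 0.05. IGHJ1 made up 0% of IGHV1-7 clonotypes in each of 3 skin replicates, against 15.9% ± 3.20 in spleen and 15.5% ± 1.02 for lymph node (SD, n = 4 each; permutation p = 0.0286, adjusted p = 0.114). IGHJ4 made up 16.8% ± 5.94 of IGHV1-42 clonotypes in skin, against 29.7% ± 4.60 in spleen and 38.0% ± 1.26 for lymph node (SD, n = 4 each). Skin lay below lymph node without overlap (permutation p = 0.0286, adjusted p = 0.114) and overlapped with spleen (permutation p = 0.0571, adjusted p = 0.137). IGHJ3 was higher in spleen than in lymph node for all 3 genes without overlap, at 10.5%, 13.3% and 15.5% against 7.13%, 6.92% and 8.58% (permutation p = 0.0286, adjusted p = 0.114 to 0.171). Over the other V genes IGHJ3 made up 11.3% to 17.7% in spleen and 7.65% to 8.55% for lymph node.

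**Figure D5:**
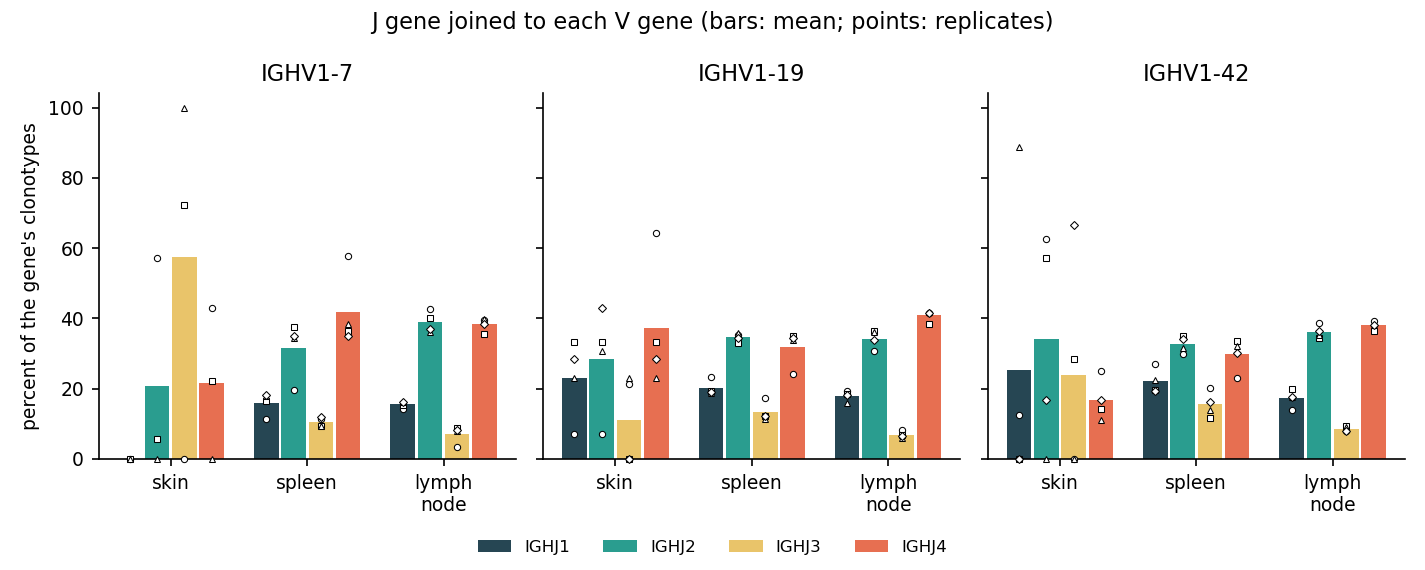
Percent of the clonotypes of each V gene (vertical axis) joined to IGHJ1, IGHJ2, IGHJ3 and IGHJ4 in skin, spleen and lymph node; bars are means over replicates and points are replicates. Skin points spread from 0% to 100% for IGHJ3 with IGHV1-7, while the 4 spleen points of the same pair lie between 9.45% and 11.9%.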

How the data were processed

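The authors deposited 1 table a library, whose entries are distinct sequences with gene names (V, J, constant), a junction and a whole-number count (copies); whether these are identifiers or reads is not stated. The deposited tables also give, as a measurement other than a count, V mismatches and aligned V length per sequence. Per the labels' protocols, cDNA was made with molecular identifiers and amplified with V and constant-region primers; the submitters' processing notes name mm10, and which program assigned genes was not given in the sources used here. Together, the tables held 2095280 sequences and 4007742 copies, with no junction out of frame and no V call naming several genes.

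Copies of the 2 technical libraries of a replicate were added. A clonotype's isotype was the constant gene with most copies, and its mutation the copy-weighted mismatched share of aligned V bases. Clonotypes per V gene were fitted with edgeR 4.0.16 (R 4.3.3; TMM factors 0.837 to 1.19; edgeR's filter) over 12 tissue replicates with Benjamini-Hochberg adjustment over 91 genes; the step was tested on simulated data. V mutation, IgA share, CDR3 length and J pairing were compared by exact two-sided permutation tests (Python 3.11.15, numpy 2.4.6, pandas 2.3.3, scipy 1.17.1). Nothing says the replicates are separate mice, so p-values measure the spread between these samples. Of the V names, 119 matched a chromosome 12 symbol of the annotation, used for coordinates only; sequences came from the deposited tables.

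Genes named beyond the 3 members were, for each, the 3 of nearest pattern, both chromosomal neighbours, and those just inside and outside an adjusted p of 0.05; clonotypes named were the largest per gene and skin replicate or other group, and those matched to them. IGHV1-4, IGHV1-26 and the sequence crossings were added after values were seen. The members and lists were chosen with earlier results of these data known.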

Additional observations from a re-analysis of the deposited data

Results flagged for a closer look

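In 11 of 65 groups of 4 replicates looked at, 1 replicate lay far from the other 3 for a measure of these genes. Chance flags about 1 in 20 groups, but several of these groups use the same clonotypes and are not independent. The causes were not tested.

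Skin replicate 3 stood apart 3 times. IGHV1-19 had 53.8% IgA there, against 0% in the other 3 skin replicates. IGHV1-42 had 88.9% of its clonotypes joined to IGHJ1 there, against 0% to 12.5%. IGHV1-42 also had its highest share of clonotypes there, 2.80%, against 2.18% to 2.29%.

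Spleen replicate 1, which held 71 IGHV1-7 clonotypes, stood apart 6 times. IGHV1-7 had 1.49% V mismatches there, against 0.321% to 0.429% in the other spleen replicates. Its IgA share was 23.9%, against 4.48% to 7.21%. Its CDR3 averaged 13.8 amino acids, against 11.8 to 11.9, and IGHJ4 made up 57.7%, against 35.0% to 38.4%. IGHV1-19 had 23.2% IGHJ1 in the same replicate, against 18.7% to 19.4%, and 24.2% IGHJ4, against 34.0% to 35.1%. The other V genes of spleen replicate 1 lay apart as well. They had 1.13% V mismatches, against 0.678% to 0.874% in the other spleen replicates, and 12.9% IgA, against 5.11% to 7.18%. Their IGHJ1 share was 21.4%, against 20.3% to 20.7%. Their IGHJ4 share was 28.6%, against 31.5% to 35.0%, so that of IGHV1-7 departed in the other direction.

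In lymph node, IGHV1-7 had 3.54% IGHJ3 in replicate 1, against 7.90% to 8.74%, and IGHV1-19 had 38.4% IGHJ4 in replicate 2, against 41.4% to 41.9%. The other V genes had their lowest IGHJ3 and IGHJ4 shares in the same lymph node replicates. These were 7.65% IGHJ3, against 8.13% to 8.55%, and 37.4% IGHJ4, against 39.0% to 41.5%.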

How the results depend on the processing

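The genes were chosen on skin against spleen, and every setting reuses the same libraries, so a shared sign is not separate support. The difference in clonotype share, skin minus spleen, was positive for all 3 genes in every setting tried, but its size moved. For IGHV1-7, 1.74 percentage points, it was 0.470 with lineages, 1.01 in technical library 2, 0.601 without skin replicate 2, 3.50 among IgA clonotypes and 6.42 with copies as weights. For IGHV1-19, 1.73, it was 0.187 among clonotypes in both technical libraries and 0.332 among IgA clonotypes alone. For IGHV1-42, 1.34, it was 0.973 without clonotypes of 1 copy, 3.07 among clonotypes in both libraries, 2.15 in technical library 1, 1.73 with copies as weights, 1.04 without clonotypes larger under another V gene and 2.86 among IgA clonotypes; the settings by isotype and by other V gene were chosen after seeing the data. IGHV1-7 in skin minus lymph node turned to -0.320 with lineages and -0.291 without skin replicate 2, and IGHV1-19 turned to -1.20 among clonotypes in both libraries. V genes called in skin over spleen, 7, were 48 with DESeq2 and no filter (44 higher, against 4 of 7), 0 with lineages, 0 with only the 2 tissues compared and 2 to 11 with 1 replicate left out. Those in skin over lymph node, 0, were 37 with DESeq2, 2 with no filter, 1 without clonotypes of 1 copy and 0 to 6 with 1 replicate left out. Those in spleen over lymph node, 20, were 34 with DESeq2, 38 with only the 2 tissues and 6 to 31 with 1 replicate left out. DESeq2 put the median of the same 91 genes at 0.33 in skin over spleen, against -0.28; relative to the median the 3 genes were at 2.21, 1.05 and 1.09 with DESeq2, against 2.45, 1.35 and 1.38. The cause was not tested. Relative to the other V genes, the difference in IGHJ3 share of IGHV1-7, spleen minus lymph node, reversed to -2.46.

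With the replicate number as a block, V genes called were 1 in skin over spleen and 11 in spleen over lymph node, with 0 called higher in skin over spleen. The blocked permutation tests of V mutation, IgA share, CDR3 length and J pairing could not pass whatever the values. The reason is that 4 pairs allow no p below 0.125 and 3 pairs none below 0.25. The permutation p-values printed above treat the samples as unpaired. Whether the numbers pair the samples was not established by V usage: of 12 correlations between samples of the same number, 1 was over 0.1, and in 5 of the 12 the sample correlated best with its own number. By junctions, 18 of the 19 matches of skin clonotypes of the 3 genes were with the same number, though these are not separate clones. Leaving out V calls that name several genes could not be run, since there were 0. Skin depth limits the shares, with 0 to 18 clonotypes a gene and replicate.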
